A study of Mus musculus with 120 samples.

Results

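Rdh11, Aldoc, Lbr and Chrna4 are 4 genes outside the core cholesterol synthesis pathway whose liver RNA was lower on a fattening diet in many mouse strains. They were chosen by that fall from earlier results of these data, as 4 of the 24883 rows of the table, and were followed through every strain, sex and diet. The diet differences below therefore describe how the genes were chosen and were not tested, apart from their difference between the sexes. The mice belonged to 10 strains of the Collaborative Cross, a panel of inbred lines that each mix the genomes of several founder strains. The strains were CC060, CC043, CC042, CC041 and CC040, and further CC032, CC019, CC013, CC011 and CC003. For 12 weeks they ate either an obesogenic diet (HF/HS), with 42% of energy from milkfat, 0.2% cholesterol and more than 30% sucrose, or a control diet of matched ingredients with little fat and less sucrose. No age, transgene or drug is named in the labels. The 40 groups of strain, sex and diet had 3 libraries each. The columns of a CC040 female control and a CC040 female HF/HS library were identical and were left out, which left 59 libraries on each diet, 29 female and 30 male. The labels do not say whether the libraries of 1 group are separate animals, and p-values reflect only how far those libraries spread, which may be technical.

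Animal cells make cholesterol from acetyl-CoA through the mevalonate pathway. When sterols are scarce in the endoplasmic reticulum, INSIG proteins let go of SREBP2 (gene Srebf2) together with its partner SCAP. SREBP2 is then cut, and the freed part enters the nucleus and raises transcription of the pathway's enzymes. When cholesterol arrives with the diet, the liver lowers this programme. Lbr lies close to the pathway: the lamin B receptor is an inner nuclear membrane protein that binds lamins and chromatin, and its membrane domain is a sterol C14-reductase, the same step that Tm7sf2 encodes. For Lbr, "outside the pathway" thus holds for the list used here and not for its enzymatic activity. Rdh11 encodes a retinol dehydrogenase of the endoplasmic reticulum that reduces retinal and other aldehydes with NADPH. Aldoc encodes aldolase C, the fructose-bisphosphate aldolase isozyme best known from brain. Chrna4 encodes the alpha-4 subunit of neuronal nicotinic acetylcholine receptors.

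The table places all 4 genes on mm10. Aldoc spans chr11:78323073-78327778, Chrna4 chr2:181022311-181039177, Lbr chr1:181815315-181842401 and Rdh11 chr12:79175551-79191819. In GENCODE M21 the Lbr span shares 460 bases with Dnah14 on the opposite strand and contains the small gene Gm26004, and the sources used here do not say whether counting used the strand. The other 3 spans overlap no other gene. The sequence upstream of the start sites is shown because the 4 genes were chosen as falling on the diet alongside the cholesterol enzymes. Many genes of those enzymes are read by SREBP2 from promoters, and whether the 4 genes are was not tested. The RefSeq promoter windows used here (GRCm38.p6) covered 6 start sites of the 4 genes, and the 250 bases before 5 of them are printed 5′ to 3′ on the gene's strand. Capitals mark matches, on either strand, to 4 motifs, none of which overlap another. TCACNCCAC is a form of the sterol regulatory element. The box read by NF-Y is CCAAT. The box read by Sp1 and related factors is GGGCGG. An E-box that basic helix-loop-helix factors read is CACGTG.
Aldoc, chr11:78322823-78323072, plus strand: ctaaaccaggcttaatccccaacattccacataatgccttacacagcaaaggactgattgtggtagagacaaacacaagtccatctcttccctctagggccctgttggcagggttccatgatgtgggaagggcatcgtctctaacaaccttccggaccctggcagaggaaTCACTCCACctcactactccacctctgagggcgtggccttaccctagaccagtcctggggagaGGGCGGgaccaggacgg
Lbr, chr1:181842402-181842651, minus strand: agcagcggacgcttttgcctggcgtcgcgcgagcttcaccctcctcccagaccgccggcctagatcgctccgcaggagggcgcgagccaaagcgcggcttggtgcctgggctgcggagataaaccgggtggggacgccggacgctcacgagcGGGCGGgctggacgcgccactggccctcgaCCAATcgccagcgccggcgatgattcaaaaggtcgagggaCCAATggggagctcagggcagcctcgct
Rdh11, inner start, chr12:79190962-79191211, minus strand: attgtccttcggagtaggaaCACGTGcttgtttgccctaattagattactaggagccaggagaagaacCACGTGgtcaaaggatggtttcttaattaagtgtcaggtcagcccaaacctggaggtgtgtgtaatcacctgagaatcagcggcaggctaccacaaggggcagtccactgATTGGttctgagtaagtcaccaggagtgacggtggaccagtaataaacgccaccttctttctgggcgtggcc
Rdh11, outer start, chr12:79191856-79192105, minus strand: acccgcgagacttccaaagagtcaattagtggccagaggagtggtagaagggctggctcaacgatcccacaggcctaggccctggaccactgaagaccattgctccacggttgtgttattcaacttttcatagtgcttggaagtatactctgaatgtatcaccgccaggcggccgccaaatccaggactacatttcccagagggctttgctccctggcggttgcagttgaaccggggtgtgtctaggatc
Chrna4, chr2:181039178-181039427, minus strand: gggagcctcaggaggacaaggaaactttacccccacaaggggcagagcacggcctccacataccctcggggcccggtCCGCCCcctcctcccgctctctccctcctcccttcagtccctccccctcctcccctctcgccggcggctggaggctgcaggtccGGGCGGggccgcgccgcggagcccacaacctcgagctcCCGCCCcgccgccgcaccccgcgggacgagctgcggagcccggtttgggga

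Searched from 250 bases before to 50 after each start, TCACNCCAC occurred in 1.24% of all 32851 RefSeq windows. Of the 4 genes, Aldoc had it, as TCACTCCAC with its first base at -80. Of the 20 windows of cholesterol synthesis genes, which covered only 17 genes of that list, 1 had it, that of Hmgcs1. CCAAT occurred in 37.4% of all windows and in 15 of the 20 cholesterol windows (75%). Lbr had it at -68 and at -28, and the inner Rdh11 start had its reverse complement at -72. GGGCGG was in 35.7% of all windows, in 60.5% of the windows of genes tested here and in 75% of the cholesterol windows. Aldoc, Lbr and Chrna4 had it, Chrna4 with 3 matches before its start. CACGTG was in 7.15% of all windows, in 9.94% of the windows of genes tested here and in 15% of the cholesterol windows. Of the 4 genes only Rdh11 had it, at -230 and -182 of the inner start. The outer Rdh11 start and the second Aldoc start, which is not printed, had no match to any of these letters. RefSeq's span of Chrna4 reaches further upstream, to 181043579, and the sequence there was not used here. These matches are a description of letters, not of bound sites.

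Expression is given in the units of the deposited table, an FPKM-like value per length whose 75th percentile was close to 10 in every library. Values were compared as log2(value + 1), which understates the change of low genes, and a difference is a mean over the strain-sex groups with its standard error (SE). Each SE comes from the spread of libraries within groups and does not measure how far strains or groups differ from each other. The 12205 genes with a mean of at least 1 were tested with limma and adjusted by Benjamini and Hochberg, with calls made below an adjusted p of 0.05. All 4 genes passed that filter. The libraries of CC003 and CC060 stood apart in Snord104, a snoRNA without a poly(A) tail. All CC060 libraries were listed at 0 for it, the CC003 median was 755300, and the medians of the remaining 8 strains lay between 25040 and 53200. CC003 libraries also summed to 3192062 to 4629890 units against 926949 to 1986963 in the others, CC060 included. The step in value that corresponds to 1 sequenced fragment, relative to the other libraries, was 7.94 to 14.4 in CC003 (median 9.55) and 0.661 to 1.32 elsewhere, so low values in CC003 rest on few fragments. In bulk liver, fewer cells of a type and less RNA per cell cannot be told apart.

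Rdh11 was by far the most abundant of the 4 per length. Its value in the 59 control libraries ranged from 9.85 to 196 with a median of 95.2, and in the 59 HF/HS libraries from 5.49 to 113 with a median of 33. The mean was 91.9 ± 40.4 (SD, n = 59) on control and 37.8 ± 26.6 (SD, n = 59) on HF/HS, or 41.2% of the control mean. The log2 difference was -1.40 ± 0.0836 (SE) over the 20 strain-sex groups. In 15 of the 20 groups every HF/HS library was below every control library: all 10 male groups and 5 of the 10 female groups. In the other 5 groups the diets overlapped, and in no group was HF/HS entirely above control. Over all tested genes and groups, 10.6% of pairs lay entirely below in this way, and since the genes were chosen by this contrast nothing is read from the excess. The difference was below 0 in all 20 groups and was smallest in CC011 females (-0.29), whose control libraries had 36.2, 53.6 and 49.5 and whose HF/HS libraries had 53.0, 40.1 and 24.1. It was largest in CC013 males (-2.31), with 77.97, 130.2 and 111 on control against 21.04, 22.2 and 17.8.

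Aldoc was expressed at a low level on both diets. Control libraries ranged from 0.774 to 14.9 (median 4.72) and HF/HS libraries from 0.617 to 6.70 (median 2.17). The means were 5.54 ± 2.65 and 2.35 ± 1.41 (SD, n = 59 each), so the HF/HS mean was 42.5% of control, and the log2 difference was -0.95 ± 0.0649 (SE). HF/HS libraries were entirely below control in 16 of 20 groups, 7 female and 9 male, beside 10.6% of pairs over all tested genes and groups. CC060 males had the largest difference (-1.72), with 5.95, 5.50 and 12.0 on control and 1.48, 1.67 and 1.52 on HF/HS. CC011 females showed almost none (-0.01), with 3.85, 6.08 and 4.82 against 5.79, 5.59 and 3.34.

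Lbr had the smallest shift and the tightest replicates. Its control libraries ranged from 3.95 to 14.3 (median 10.2) and its HF/HS libraries from 3.26 to 12.7 (median 6.95). The means were 9.98 ± 2.42 and 7.14 ± 2.203 (SD, n = 59 each), 71.6% of control, with a log2 difference of -0.44 ± 0.0318 (SE). It was nevertheless the gene with the most separated groups, 17 of 20, of which 10 were male and 7 female. Over all tested genes and groups the share of pairs was 10.6%. The difference ranged from -0.09 in CC011 females to -0.85 in CC003 males, where control libraries had 11.5, 10.1 and 7.10 and HF/HS libraries 5.33, 4.14 and 4.91. Libraries of the same group differed by an SD of 0.17 on the log2 scale for Lbr, 0.36 for Aldoc, 0.46 for Rdh11 and 0.73 for Chrna4. The median over all tested genes was 0.20, so Lbr varied less than the median gene and the other 3 more.

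Chrna4 was the most variable of the 4. Control libraries ranged from 0.0340 to 25.8 (median 2.47) and HF/HS libraries from 0, listed in 1 CC043 female, to 21.9 (median 0.278). The means were 4.80 ± 5.82 on control and 1.70 ± 4.24 on HF/HS (SD, n = 59 each), 35.4% of control, and the log2 difference was -1.18 ± 0.133 (SE). In 18 libraries, 16 of them on HF/HS and 1 of these at 0, the value came to less than 5 of its library's fragment steps, so the lowest levels are not resolved from each other. HF/HS lay entirely below control in 11 of 20 groups, 8 of 10 male but 3 of 10 female. Over all tested genes and groups, 10.6% of pairs did so. The mean difference was above 0 in 2 groups, both female. In CC003 females it was 1.15, with 25.8, 9.20 and 1.69 on control and 16.9, 21.9 and 18.6 on HF/HS. In CC043 females it was 0.60, with 1.35, 1.08 and 0.0766 against 2.75, 0 and 3.91. The diets overlapped in both groups. Without CC003 and CC060, HF/HS was entirely below control in 12 of 16 groups for Rdh11, 15 for Aldoc, 14 for Lbr and 9 for Chrna4. Over all tested genes, the share entirely below ran from 5.1% in CC041 females to 17.5% in CC042 males. CC040 females, with 2 libraries on each diet, had 16.1%.

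**Figure D1:**
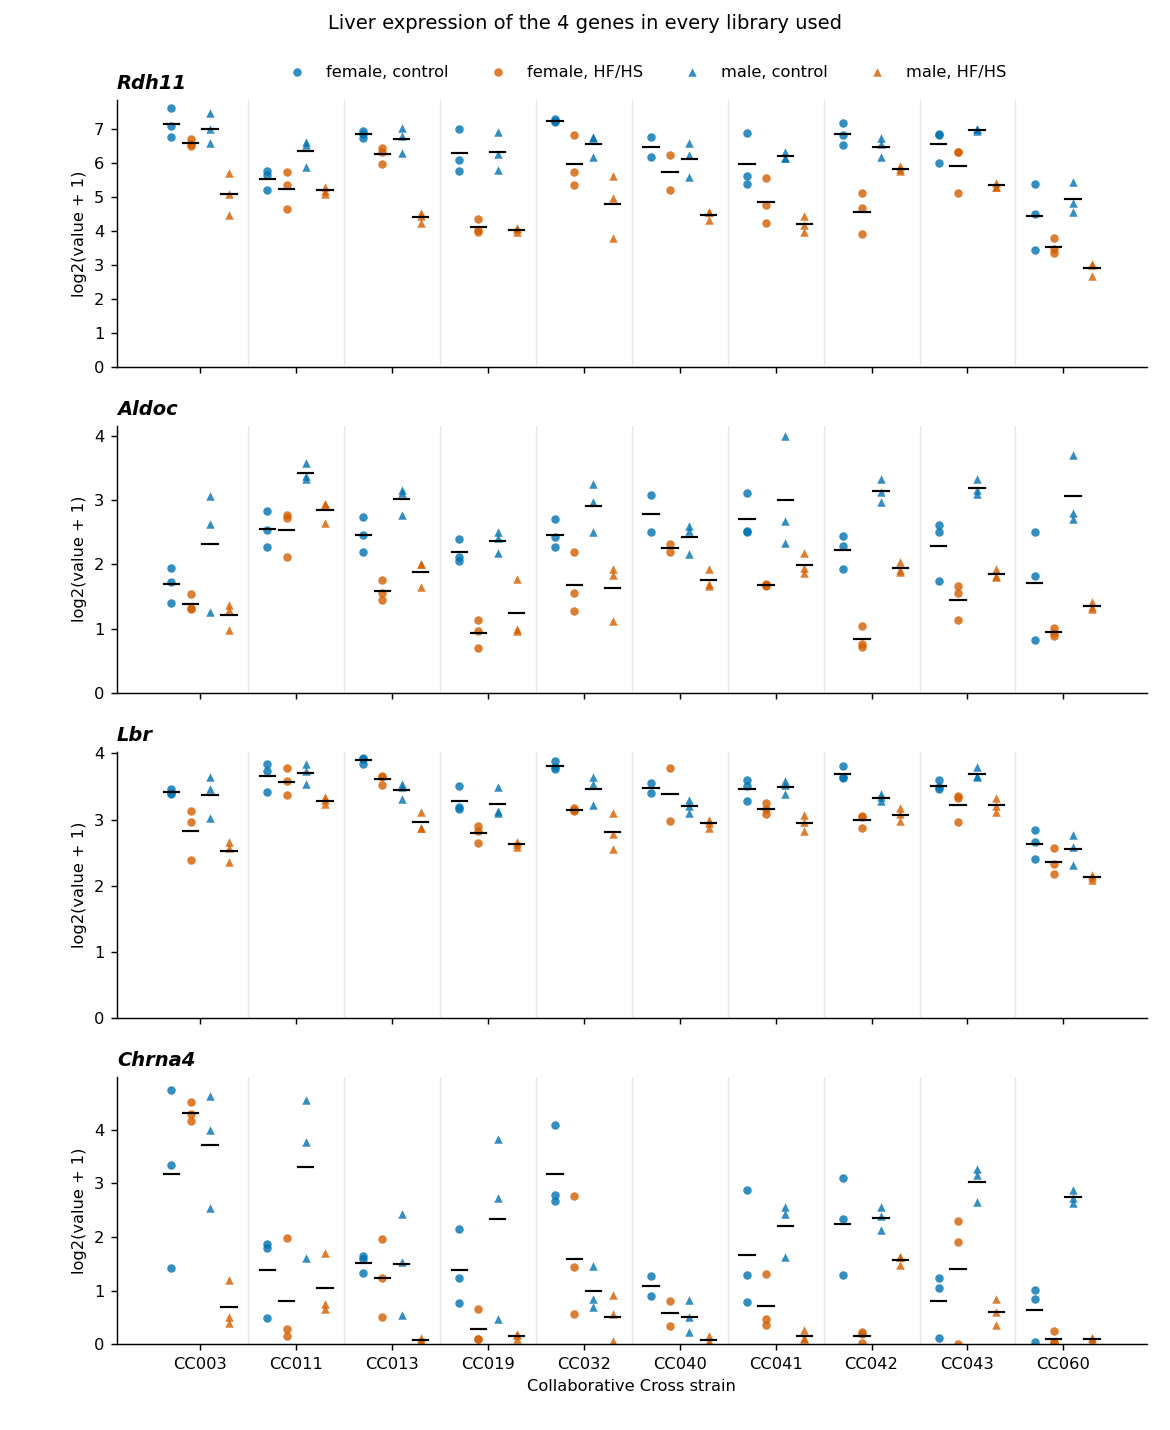
Each point is 1 library, placed by strain on the x axis, with log2(value + 1) of the table's FPKM-like value on the y axis. Circles are females, triangles males, blue the control diet and orange HF/HS, and black bars are group means of up to 3 libraries. Male HF/HS points lie below male control points in all 10 strains for Rdh11 and Lbr, while CC003 females on HF/HS keep high Chrna4.

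Males and females differed in these genes, and the direction depended on the gene and the diet. On the control diet Aldoc was higher in males by 0.58 ± 0.0918 log2 (SE; adjusted p = 1.78e-07 by limma), with the male mean higher in 9 of 10 strains. Its values were 1.40 to 14.9 (median 6.85) in 30 male and 0.774 to 7.62 (median 4.35) in 29 female control libraries. Chrna4 was also higher in control males, by 0.57 ± 0.189 (adjusted p = 0.0113), in 7 of 10 strains. Its values were 0.167 to 23.7 (median 4.61) in males and 0.0340 to 25.8 (median 1.51) in females. Lbr was lower in control males by a small amount (-0.13 ± 0.045, adjusted p = 0.0119), in 7 of 10 strains. Rdh11 did not pass the test (0.03 ± 0.118, adjusted p = 0.851), and its male mean was higher in 5 strains and lower in 5. Of all tested genes, 43.5% were called for sex on the control diet, so a call here is common. The Chrna4 call was lost without CC003 and CC060 (0.37, adjusted p = 0.143), and the Lbr and Chrna4 calls were lost when strains rather than libraries were the units (adjusted p = 0.142 and 0.342).

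On HF/HS, Aldoc and Lbr kept the direction they had on control, and Chrna4 had the opposite one. Rdh11 was lower in males by 0.65 log2 (-0.65 ± 0.118, adjusted p = 3.55e-06), in 9 of 10 strains, with 5.49 to 59.6 (median 22.4) in 30 male and 9.36 to 113 (median 40.1) in 29 female libraries. Lbr was lower in males as well (-0.25 ± 0.045, adjusted p = 2.5e-06), in 8 of 10 strains. Chrna4 was lower in males (-0.62 ± 0.189, adjusted p = 0.00489), in 8 of 10 strains, at 0.0163 to 2.27 (median 0.175) against 0 to 21.9 (median 0.428) in females. Among these 8, CC060 differed by only -0.003. Aldoc was again higher in males (0.24 ± 0.0918, adjusted p = 0.0233), in 7 of 10 strains. On this diet 45.4% of tested genes were called for sex. The Chrna4 call rested on CC003: without that strain its difference was -0.28 (adjusted p = 0.219). Without CC042 that of Aldoc was 0.15 (adjusted p = 0.235), and with strains as the units the calls for Rdh11 (adjusted p = 0.0833), Aldoc (0.157) and Chrna4 (0.241) were lost.

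The male diet difference was larger than the female one for Rdh11 and Chrna4. This comparison is built from the group diet differences by which the genes were chosen. Its calls are thus not independent of that choice. For Rdh11 the male minus female diet difference was -0.68 ± 0.167 log2 (SE; adjusted p = 0.0214 by limma), and the male shift was the larger in 9 of 10 strains. The HF/HS mean was 31.2% of control in males and 50.9% in females. For Chrna4 it was -1.18 ± 0.267 (adjusted p = 0.0105), in 7 of 10 strains, with HF/HS means of 9.04% of control in males and 77.5% in females, or 10.5% and 37.5% without CC003. Only 0.877% of tested genes, 107 in all, were called in this comparison, 62 with the lower and 45 with the higher difference in males. Of the 21 tested cholesterol synthesis genes 4 were called, all with the lower difference in males. With strains as the units, 0 of the 12205 tested genes were called in this comparison, cholesterol genes included. Aldoc (-0.33 ± 0.13, adjusted p = 0.269) and Lbr (-0.12 ± 0.0637, adjusted p = 0.472) had the same sign and did not pass. Neither call held without CC003 and CC060, where the differences were -0.55 for Rdh11 (adjusted p = 0.232) and -0.69 for Chrna4 (adjusted p = 0.431), and neither held with strains as the units (-0.68 and -1.18, adjusted p = 0.841 for both). Single strains also ended them, CC013 for Rdh11 (-0.57 without it, adjusted p = 0.176) and CC003 for Chrna4 (-0.85, adjusted p = 0.142) being those with the highest p.

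CC042 went the other way in all 4 genes, as a description that was not tested. Its Rdh11 difference was -2.28 in females and -0.65 in males. Females had 113, 145 and 93.1 on control against 34.2, 14.04 and 24.8 on HF/HS, and males had 106, 93.7 and 71.2 against 56.4, 59.6 and 53.8. Its Chrna4 difference was -2.10 in females and -0.78 in males, that of Lbr -0.71 and -0.26, and that of Aldoc -1.38 and -1.20. The median difference of the 21 cholesterol synthesis genes in CC042 had the same order, -1.63 in females and -0.74 in males. CC042 was the only strain of 10 in which that median, or Rdh11, was lowered more in females. For the other genes it was not alone: females also had the larger fall in CC019 and CC041 for Aldoc. The same held in CC032 for Lbr, and in CC032 and CC040 for Chrna4. At the other end, CC011 females had the smallest shift of the 20 groups in Rdh11, Aldoc, Lbr and the cholesterol median (-0.20).

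**Figure D2:**
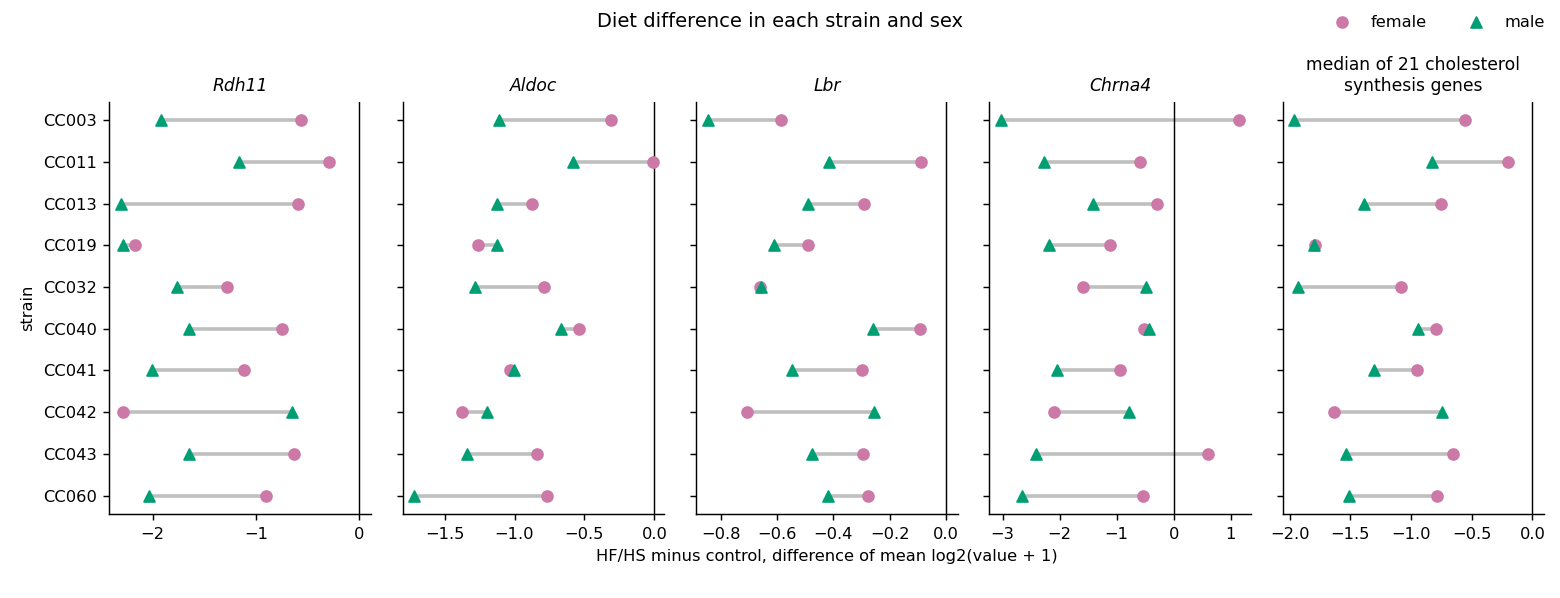
Each row is a strain and each panel a gene, with the median of 21 cholesterol synthesis genes at the right. The x axis is the HF/HS minus control difference of mean log2(value + 1), circles are females, triangles males, and grey lines join the sexes. Triangles lie left of circles in 9 of 10 strains for Rdh11 and for the cholesterol median, with CC042 the exception. In CC019 the cholesterol medians of females (-1.793) and males (-1.797) almost coincide. Chrna4 is above 0 in CC003 and CC043 females.

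Strains differed in the level of these genes on the control diet, where 86.5% of tested genes were called among the 8 strains other than CC003 and CC060. Rdh11 (adjusted p = 0.00216), Lbr (adjusted p = 0.000287) and Chrna4 (adjusted p = 0.0275) were called by limma's F test and Aldoc was not (adjusted p = 0.0654). Control Rdh11 was highest in CC003 (140 ± 38.9, SD, n = 6) and then ran through CC032 (124 ± 34.0), CC043, CC013, CC042, CC019, CC040, CC041 and CC011 (64.9 ± 25.2) to CC060 (27.5 ± 12.4). Every neighbouring pair in that order overlapped within 1 SD. CC003 and CC060, at its ends, are the strains whose libraries stood apart in Snord104. How far that sets their level was not tested. Control Lbr ran from CC011 (11.9 ± 1.48) and CC013 (11.9 ± 2.27) to CC019 (8.67 ± 1.28), each within 1 SD of the next. CC060 (5.09 ± 0.857, SD, n = 6) stood below CC019 by more than both SDs together, with the same limit on its libraries.

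Control Aldoc ran from 7.35 ± 2.83 in CC011 to 3.47 ± 2.36 in CC003 (SD, n = 6) with no separated neighbours. On HF/HS CC011 (5.56 ± 1.24, n = 6) stood apart from CC040, the next strain (2.95 ± 0.803, n = 5), and CC019 was lowest at 1.19 ± 0.633. Control Chrna4 ran from 13.4 ± 9.92 in CC003 to 0.729 ± 0.476 in CC040 (n = 5), and neighbours overlapped throughout. CC003 is at an end of both control orders, and its libraries stood apart as described above. CC040 carried the Chrna4 strain call, whose adjusted p was 0.529 without it. On HF/HS the Chrna4 mean in CC003 was 9.90 ± 10.2, made of females at 16.9 to 21.9 and males at 0.312 to 1.29.

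Libraries of the same strain, sex and diet differed among themselves, and this spread ran alongside the cholesterol enzymes. The genes were chosen with earlier results of these data known, so this is not independent support. After each group's mean was removed, Rdh11 correlated with the median of the 21 cholesterol synthesis genes at Pearson r = 0.871 over all libraries used. The r was 0.851 on control and 0.905 on HF/HS (59 libraries each). For Aldoc it was 0.614, for Chrna4 0.603 and for Lbr 0.413. Without CC003 and CC060 (94 libraries) the values were 0.869, 0.614, 0.649 and 0.417. These are descriptions over libraries that share their scaling, and the 3 libraries of a group share its mean. The genes most like Rdh11 were Fdps (0.881), Pmvk (0.878), Nsdhl (0.858), Dhcr7 (0.831) and Lss (0.806), all enzymes of the pathway. The closest to Aldoc were Msmo1 (0.664), Idi1 (0.656), Fdft1 (0.655), Cyp51 (0.623) and Nsdhl (0.617), also all of the pathway.

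Chrna4 had other neighbours. Acss2, which makes acetyl-CoA from acetate, came first (0.831), followed by Pgd of the pentose phosphate pathway (0.818), Acly, which makes acetyl-CoA from citrate (0.810), the lipase family gene Pnpla5 (0.790) and Lss (0.767). Lbr had its highest r with Usp12 (0.534), Cyfip2 (0.502), H2-Q8 (0.485), Cep192 (0.481) and Lss (0.476). Of the 21 cholesterol genes, 18 were among the 100 genes most like Rdh11, 18 for Aldoc, 10 for Lbr and 9 for Chrna4. Without CC003 and CC060 these counts were 15, 15, 3 and 9. The median r of the 21 was 0.769, 0.519, 0.372 and 0.486 in the same order, against medians between -0.014 and 0.011 over all tested genes. Ggps1, which makes geranylgeranyl diphosphate on a side branch, had the lowest r of the 21 for Rdh11, Aldoc and Chrna4, and Ebp for Lbr. Among the 4 genes themselves the highest within-group r was that of Rdh11 with Chrna4 (0.675), and the other 5 pairs had 0.270 to 0.390.

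**Figure D3:**
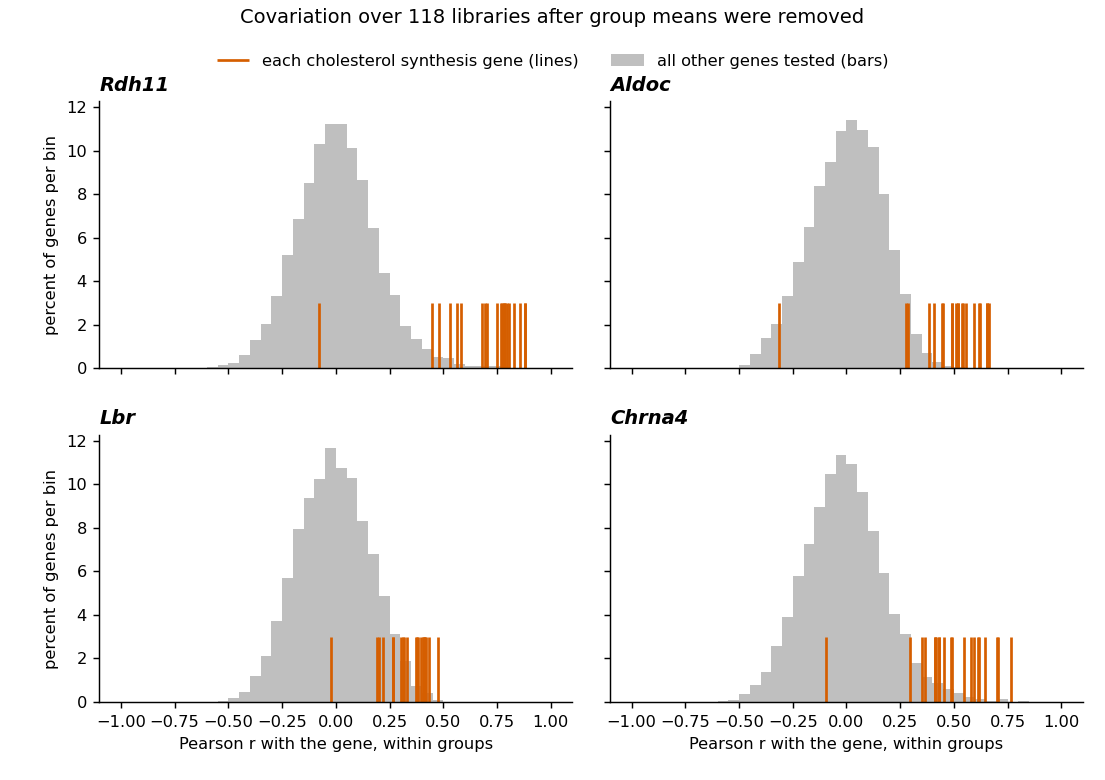
Grey bars give the percent of tested genes (y axis) in each bin of Pearson r with the named gene (x axis) over the libraries used after group means were removed, and orange lines mark the 21 cholesterol synthesis genes, drawn to a fixed height. Most lines sit near or beyond the right edge of the bars for Rdh11 and Aldoc, with medians of 0.769 and 0.519, while Ggps1 lies at -0.077 and -0.312. For Lbr they reach further into the bars, with a median of 0.372.

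**Figure D4:**
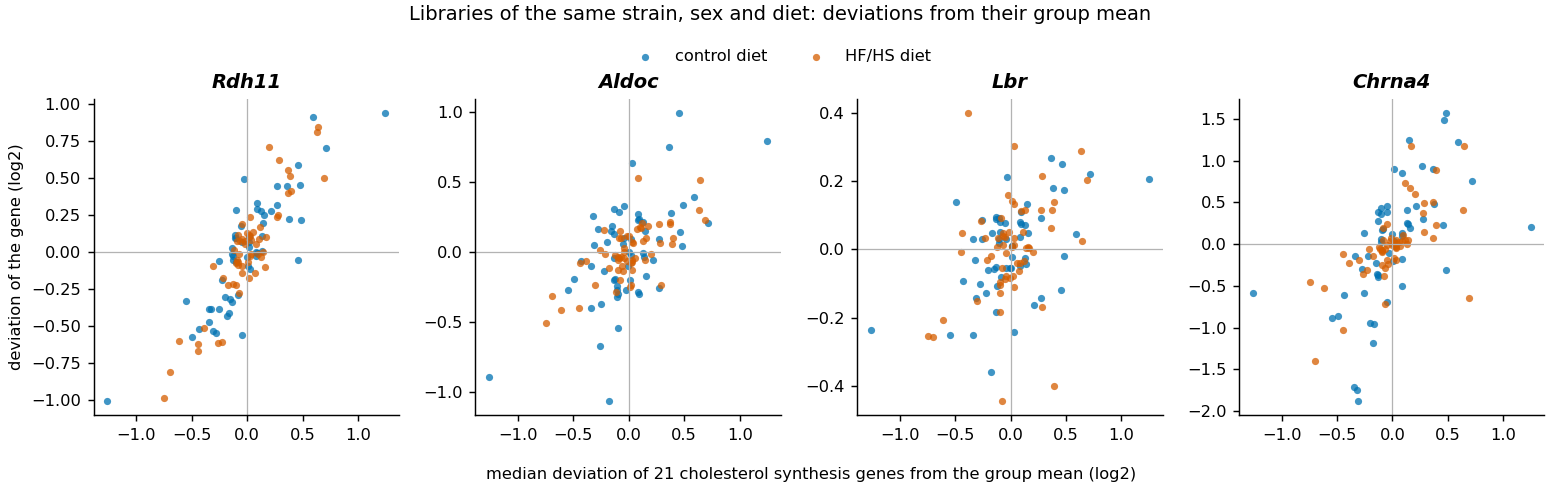
Each point is a library, with the median deviation of the 21 cholesterol synthesis genes from their group means on the x axis and the deviation of the named gene on the y axis, both log2. Blue points are control and orange HF/HS libraries. Each panel has its own y scale. The correlation is strongest for Rdh11 (r = 0.871) and weakest for Lbr (r = 0.413), and both diets lie along the cloud.

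Over the 40 group means, which hold the diet contrast by which the genes were chosen, the closest gene was Sqle for Rdh11 (r = 0.941), Slc25a1, the mitochondrial citrate carrier, for Aldoc (0.806) and Mvd for Chrna4 (0.812). Next came Acss2 (0.925), Fdps (0.913) and Cyp51 (0.913) for Rdh11. For Aldoc they were Mvk (0.803), Msmo1 (0.796), Ropn1l (0.786) and Prss8 (0.772). Genes close to Lbr were Pmvk (0.840), Sqle (0.837), Insig1 (0.832) and Pank3 (0.832). For Chrna4 the next were Pdzk1ip1 (0.809), Dhcr7 (0.794), Nsdhl (0.785) and Acss2 (0.778).

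The cholesterol list gives the scale of the diet response beside which the 4 genes were chosen. Of all tested genes 15.4% were called lower and 17.2% higher on HF/HS, with a median log2 difference of 0.00. Of the 21 cholesterol synthesis genes tested, 20 fell and 0 rose, with a median of -1.22. Sqle, the squalene epoxidase, fell by 2.72 log2, Idi1 by 2.09, and Tm7sf2, whose enzyme does the same step as Lbr, by 1.10 (adjusted p = 1.37e-23). Rdh11 thus had a difference near the list's median, and Lbr a smaller one. That of Chrna4 lay near it on the log2(value + 1) scale. It ran from -2.24 to -0.50 over the alternative settings, which include other pseudocounts. Of 15 genes of SREBP regulation and sterol uptake, 10 fell and 4 rose, with a median of -0.29. Insig1, which holds SREBP2 in the endoplasmic reticulum, fell by 0.94 and Srebf2 by 0.42, while Srebf1, which drives fatty acid synthesis, rose by 0.42 (adjusted p = 0.00711). Without CC003 and CC060, 20 and 0 of the first list and 10 and 3 of the second fell and rose.

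The families to which the 4 genes belong were split in direction or had few calls. Of all tested genes, 17.2% were called higher and 15.4% lower on HF/HS. Among 32 tested genes of retinoid metabolism, 10 rose and 6 fell, with a median of 0.01, and without CC003 and CC060 8 rose and 10 fell. Aldh1a1, which oxidises retinal, rose by 0.48 ± 0.0587 and Retsat, a retinol saturase, by 0.54 ± 0.0879. Of the 9 other retinol dehydrogenases with Rdh names that were tested, 2 fell, 1 rose and 6 were not called. Rdh9 fell by 0.23 (adjusted p = 0.0103) and Rdh13 by 0.16 (adjusted p = 0.00231), both named after their values were seen. Rdh10 rose by 0.09 (adjusted p = 0.0282), and Rdh14 had -0.03 (adjusted p = 0.318).

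Of 25 genes of glycolysis and the aldolases, 6 fell and 4 rose, beside 15.4% and 17.2% of all tested genes. The list's median was -0.06. Aldoa, the aldolase of muscle and many other tissues, did not pass (-0.03 ± 0.0423, adjusted p = 0.687). Pfkfb1, the liver enzyme for fructose 2,6-bisphosphate, fell by 0.24 and Pkm, a pyruvate kinase, rose by 0.22. In the sex comparison on the control diet 17 of 25 were higher in males and 3 lower, beside 24.8% and 18.8% of all tested genes, with a median of 0.22 against 0.02, and Aldoa was higher in males like Aldoc (0.27, adjusted p = 0.000151).

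Beside the 15.4% of all tested genes called lower and 17.2% higher stand the nuclear lamina and envelope genes. Of 25 rows for 24 such genes (Syne1 had 2 rows), 4 fell and 2 rose, with a median of 0.00. Those that fell were led by Cbx3 (-0.17), a heterochromatin protein, and Tmpo (-0.14), a lamina-associated protein, and Tmem43 rose by 0.27. Lmnb1, a B-type lamin, had 0.08 ± 0.0429 (adjusted p = 0.132). Without CC003 and CC060, 7 fell and 3 rose. Of the 22 genes listed as nicotinic receptor subunits and related genes, 2 passed the filter on low values. Chrna2, another alpha subunit, rose by 0.43 ± 0.0764 (adjusted p = 4.87e-06), opposite in sign to Chrna4, and Bche, butyrylcholinesterase, had -0.07 (adjusted p = 0.116).

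Markers of other cells were measured beside these values, and their part in the results was not tested. Hepatocyte markers, 12 genes, summed to 23520 to 113100 on control and 23430 to 81160 on HF/HS, with 2 called higher and 6 lower, and Alb had a median of 0, which in liver can mark a failed estimate. Macrophage markers, also 12, summed to 170 to 1539 on control and 84.4 to 1849 on HF/HS, with 6 higher and 0 lower. Of all tested genes, 17.2% were called higher and 15.4% lower on HF/HS. By sex on the control diet, 9 of the 12 macrophage markers were lower and 0 higher in males, and 3 hepatocyte markers were higher and 0 lower, beside 18.8% of all tested genes lower and 24.8% higher. Since Chrna4 is known from neurons, 12 neuron markers were read. They summed to 2.53 to 11.8 on control and 3.63 to 12.5 on HF/HS, and Tubb3, Snap25, Stmn2, Gap43, Uchl1, Nefl, Nefm, Th and Dbh had a median of 0 on both diets. The other lists gave, as genes called higher and lower of those tested, 0 and 0 of 6 for neutrophils, 0 and 0 of 3 for lymphocytes, 4 and 1 of 10 for stellate cells, 3 and 0 of 10 for endothelium, 1 and 0 of 3 for bile ducts and 1 and 0 of 6 rows for 4 red blood cell genes.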

How the data were processed

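Liver RNA was sequenced in 120 libraries. The authors deposited 1 table of 24883 rows and 120 columns with an FPKM-like signal per gene, rescaled so that the 75th percentile was 9.992 to 10 in every library. Its formula, the annotation and any filter are not given in the sources used here. Per the submitters' processing notes, the build was mm10 and the tools, with no role given, were Cufflinks 2.2.1, Bowtie2 2.2.5.0 and TopHat2 2.1.1. Per the labels' protocols, total RNA was made into libraries with a ribosomal-depletion kit and an mRNA kit, without saying which library had which. The deposited values are not counts, so absolute depth is unknown, and relative depth was read from the steps between low values of 4027 single-transcript genes.

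Values were taken as log2(value + 1) for the 12205 genes with a mean of at least 1; 1 row lacked a value and was dropped. Group means for 40 groups, with a trended, robust prior, were fitted in limma 3.58.1 (R 4.3.3), two-sided, with the Benjamini-Hochberg adjustment over all of them. Tests were made for diet (applied to the lists and to all genes, not to the members), for sex on each diet, for the male minus female diet difference, and for strain on the control diet (8 strains, mean of both sexes). The members, the gene lists and the tests were chosen with earlier results of these data known, and no list is independent evidence. Named genes were the 4 members, up to 5 genes of each list with the lowest diet p, 15 genes always named where tested, and the 5 genes most like each member by each measure, leaving out repeated symbols and Gm-number or Rik names. Some genes this rule took are not reported here, and counts and medians include them. Coordinates in the table count from 0 at the start and were raised by 1. The fits were tested on simulated data. Alternatives were pseudocounts of 0.1 and 5, no filter or a minimum of 5, quantile and size factor scaling, no trend, a block for the library number, library weights, all 120 columns, all 10 strains in the strain test, strain as the unit, and leaving out library numbers or strains.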

Additional observations from a re-analysis of the deposited data

Results flagged for a closer look

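The diet difference of Rdh11 differed between the sexes, in a comparison built from the group differences by which the genes were chosen. It was -0.68 on the log2 scale, male minus female (adjusted p = 0.0214 by limma), and the difference was larger in males in 9 of 10 strains, with CC042 the exception. The call was lost without CC003 and CC060 together (-0.55), without CC003, CC011, CC013, CC043 or CC060 alone (-0.66 to -0.57), and with strains as the units (adjusted p = 0.841).

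The diet difference of Chrna4 also differed between the sexes, by -1.18 (adjusted p = 0.0105 by limma), with the larger male shift in 7 of 10 strains. Females of CC003 and CC043 had mean differences above 0, of 1.15 and 0.60, with overlapping libraries, and without CC003 the male minus female value was -0.85 (adjusted p = 0.142).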

How the results depend on the processing

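No called result changed sign under any alternative run, and the strain calls of Rdh11 and Lbr held in all that gave a value. The calls for Aldoc by sex on control and for Lbr by sex on HF/HS held in all of them, and that for Rdh11 by sex on HF/HS in all but strain as the unit (-0.65, adjusted p = 0.0833). With strains as the units (10 per sex) the calls were also lost for Lbr (-0.13) and Chrna4 (0.57) by sex on control, Aldoc (0.24) and Chrna4 (-0.62) by sex on HF/HS, and the male minus female diet difference of Rdh11 (-0.68) and Chrna4 (-1.18). Leaving out CC003 and CC060 ended the Chrna4 sex calls (0.37 on control, -0.32 on HF/HS, adjusted p = 0.143 and 0.208) and the male minus female calls of Rdh11 (-0.55) and Chrna4 (-0.69). A pseudocount of 5 gave 0.10 for Aldoc by sex on HF/HS (adjusted p = 0.094) and a diet difference of -0.50, and one of 0.1 a Chrna4 diet difference of -2.24 and a Chrna4 strain test of adjusted p = 0.0844. The Aldoc strain test passed with a pseudocount of 5 (adjusted p = 0.0182), all 120 columns (0.0384), all 10 strains (0.000228) and library weights (0.000151). Aldoc and Chrna4 have no value with a mean of at least 5.

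Leaving out 1 library number of a sex and diet at a time, Lbr by sex on control ranged from -0.15 to -0.12 (lost without female control 3), Chrna4 from 0.46 to 0.75 (lost without male control 1 or 2) and Aldoc by sex on HF/HS from 0.22 to 0.26 (lost without female HF/HS 2 or 3 or any male HF/HS number). The male minus female value of Rdh11 ranged from -0.76 to -0.58 (lost without female or male control 1 or 2 or male HF/HS 3) and that of Chrna4 from -1.36 to -1.08 (lost without female HF/HS 3 or male HF/HS 2). The adjusted p of the strain test ranged from 0.0129 to 0.187 for Aldoc (passed without male control 3) and from 0.00543 to 0.155 for Chrna4 (lost without female control 1 or 2, male control 1, or male HF/HS 1 or 2).

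Leaving out 1 strain at a time, Lbr by sex on control ranged from -0.17 to -0.10 (lost without CC013, CC032 or CC042) and Chrna4 from 0.38 to 0.87 (lost without CC011, CC043 or CC060). By sex on HF/HS, Aldoc ranged from 0.15 to 0.33 (lost without CC013, CC042 or CC043) and Chrna4 from -0.85 to -0.28 (lost without CC003). The male minus female value of Rdh11 ranged from -0.94 to -0.57 (lost without CC003, CC011, CC013, CC043 or CC060) and that of Chrna4 from -1.46 to -0.85 (lost without CC003, CC043 or CC060). The adjusted p of the strain test ranged from 0.0371 to 0.652 for Aldoc (passed without CC003, CC032, CC041 or CC060) and from 0.0115 to 0.529 for Chrna4 (lost without CC040).

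Taken over all groups, the library numbers do not pair the libraries: the deviations of same-numbered control and HF/HS libraries correlated at -0.22 to 0.36 (median -0.01, 58 pairs, 9 above 0.1), and CC041 females were the only group with all 3 pairs above 0.1 (0.25 to 0.36). With the replicate block the male minus female diet difference was -0.69 for Rdh11 (adjusted p = 0.0221) and -1.19 for Chrna4 (adjusted p = 0.0124), and no call for a member changed. Depth limits the low values of Chrna4, which lay under 5 fragment steps in 18 libraries.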
